A study of Homo sapiens with 3 samples.

Results

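The genes described here encode 7 families of ubiquitin ligase proteins, the RNF, TRIM, FBXO, FBXL, FBXW, KLHL and KBTBD families. A member is any annotated gene whose symbol is 1 of these stems followed by digits, with pseudogenes and antisense RNAs left out. By that rule 139 of the 8661 named genes on the arrays were members: 43 RNF, 30 TRIM, 24 FBXO, 8 FBXL, 7 FBXW, 20 KLHL and 7 KBTBD genes. Gene names were at hand for 1 of the deposited tables, which holds probes that differed from vehicle by at least 10% at either dose, so members that differed less are mostly absent. The RefSeq table lists 268 protein-coding genes of these families.

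LNCaP cells, an established human prostate cancer line from a lymph node metastasis, received bufalin for 24 h at a dose of 10 nM or 20 nM, or its ethanol vehicle. Bufalin, a toad venom steroid, blocks the sodium pump. Transcripts were measured on Illumina bead arrays with 1 array per treatment, so there were no replicates and no test between treatments, and precision is limited by having single arrays. Between 14612 and 14735 of 47323 probes were detected on each array, where detected means a deposited detection p-value below 0.01. Of the fixed luminal prostate markers, 10 genes had a named probe, and all 10 were detected on the vehicle and 10 nM arrays and 9 at 20 nM. These markers differed as well, 2 of them 2-fold or more above vehicle at 20 nM and 4 as far below it. Of 5 leukocyte markers, 3 had a named probe (CD14, CD68 and HLA-DRA), with summed intensities of 697 with vehicle, 965 at 10 nM and 1269 at 20 nM, and 2 of them 2-fold or more above vehicle at 20 nM. Of 6 stromal markers, 3 had a named probe (VIM, TAGLN and ACTA2), with summed intensities of 1831 with vehicle, 2734 at 10 nM and 2474 at 20 nM. No basal epithelial marker was among the named genes, and of the neuroendocrine markers only ENO2 was. The part of these lists in the results below was not tested.

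Ubiquitin ligases choose the proteins that receive ubiquitin, a tag that can send a protein to the proteasome or change its activity. RING domains, found in RNF and most TRIM proteins, hold the ubiquitin-carrying enzyme directly. F-box proteins (FBXO, FBXL and FBXW) bring substrates to the CUL1 scaffold through the adaptor SKP1, with leucine-rich repeats in FBXL and WD40 repeats in FBXW proteins as substrate-binding parts. KLHL and KBTBD proteins bring substrates to the CUL3 scaffold, joining it through a BTB domain and usually holding the substrate with kelch repeats.

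At 20 nM bufalin the members moved to both sides of vehicle, with the KLHL, RNF and FBXW families holding the genes farthest above it and the TRIM and KBTBD families most of those farthest below. KLHL24, a CUL3 adaptor known for its role in keratin turnover in skin, was 8.88-fold higher, KLHL28 was 8.57-fold higher and FBXW7, the receptor that sends cyclin E and MYC for degradation, was 6.91-fold higher. TRIM51 was 10.5-fold lower, FBXL6 3.66-fold lower and FBXO5, an inhibitor of the anaphase-promoting complex, 3.54-fold lower. Folds are on a scale with an offset of 16 added after background removal. The offset shrinks the differences of dim probes, and background removal enlarges them. On this scale 19 members were at least 2-fold higher and 26 lower at 20 nM, and without background removal 11 and 8.

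Of 134 members detected on at least 1 of the 2 arrays, 19 were above vehicle by 2-fold or more at 20 nM, 26 were at least 2-fold lower and 89 were neither. Among all 8346 named genes detected in that comparison, 14.7% were at least 2-fold higher and 16.6% at least 2-fold lower. The members' shares, 14.2% higher and 19.4% lower, lie near that background, and their median log2 fold change of -0.12 lies beside -0.10 for all named genes. Of the higher calls, 1 rests on a probe detected at 20 nM and not with vehicle, and of the lower calls, 10 rest on a probe detected with vehicle and not at 20 nM. Over the 111 members detected on both arrays, 18 were higher, 16 lower and the median was 0.14, against -0.09 for all named genes detected on both. In the deposited intensities with no background removal or scaling, 558 of all 8346 named genes were higher and 540 lower. The members split there into 10 higher and 8 lower. The lower calls kept there were FBXL6, FBXO4, FBXO5, KBTBD11, TRIM48, TRIM49C, TRIM49D1 and TRIM51. The higher calls kept were FBXO32, FBXW7, KLHL24, KLHL28, RNF103, RNF145, RNF146, RNF149, RNF19B and RNF24.

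At 10 nM, 9 of 133 detected members were at least 2-fold higher and 8 at least 2-fold lower, while 6.46% of all named genes were higher and 3.27% lower. The members' shares were 6.77% and 6.02%. Their median log2 fold change was -0.07, and that of all named genes was -0.04. In the deposited intensities as they are, 6 members were higher and 0 lower, so no lower call at 10 nM was left without the background removal. Among all 8233 named genes detected, 208 were higher and 33 lower there. The members' share of higher calls was 52.9% as processed and 100% in the deposited values. For all named genes that share also moved by more than 10 percentage points, from 66.4% to 86.3%.

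**Figure D1:**
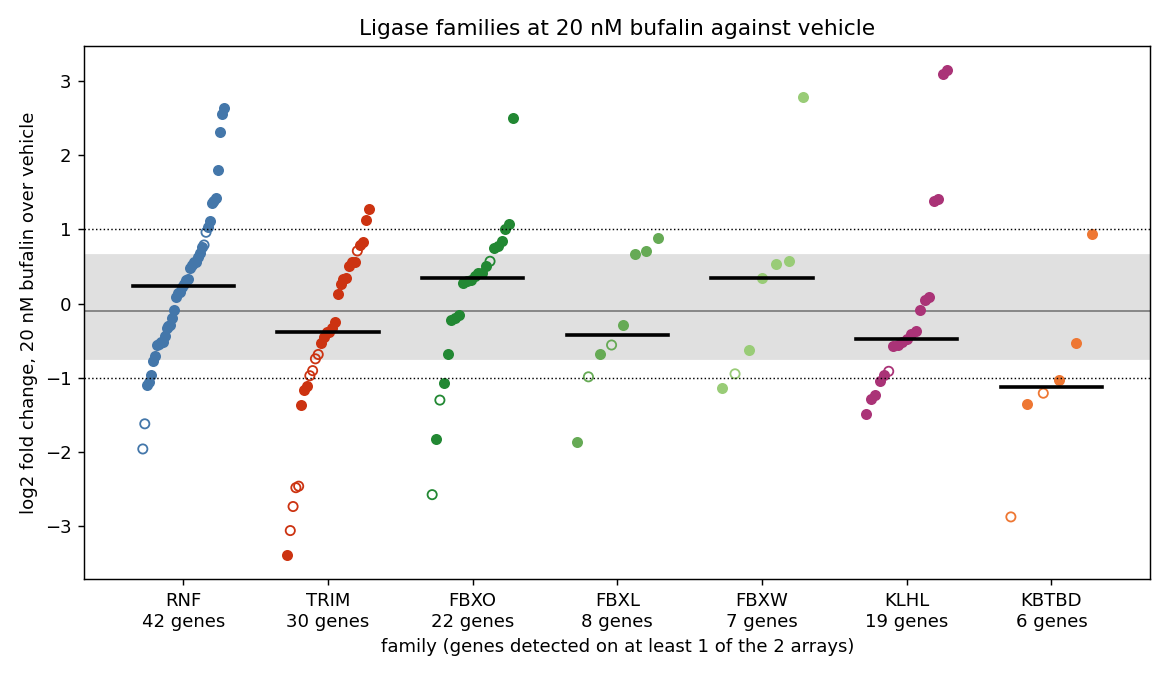
Log2 fold change at 20 nM bufalin over vehicle for each detected member, by family, with 1 point per gene; filled points were detected on both arrays and open points on 1. Black bars are family medians, the grey band spans the quartiles of all named genes around their median line, and dotted lines mark 2-fold. RNF, FBXO and FBXW medians lie at 0.24, 0.34 and 0.34, and the KBTBD median at -1.12.

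The RNF family had its members mostly above vehicle at both doses. Of 42 detected RNF genes, 9 were at least 2-fold higher and 4 lower at 20 nM, and the median log2 fold change was 0.24. That is 21.4% higher and 9.52% lower, beside 14.7% and 16.6% for all named genes. At 10 nM 5 RNF genes were higher and 1 lower, and the median was 0.32. Those shares of 11.9% and 2.38% stand beside 6.46% and 3.27% for all named genes at 10 nM. Over the 37 RNF genes detected on both arrays at 20 nM, 8 were higher, 2 lower and the median was 0.22.

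RNF103 encodes a ligase of the endoplasmic reticulum membrane. Its deposited intensity was 669 with vehicle, 2145 at 10 nM and 3639.7 at 20 nM. It stood 3.53-fold higher than vehicle at 10 nM and 5.88-fold higher at 20 nM. RNF19B, a ligase of the RING-between-RING class, read 149 with vehicle, 298 at 10 nM and 406 at 20 nM. It was 3.88-fold above vehicle at 10 nM and 6.21-fold above it at 20 nM. Both genes were lowest on the vehicle array and highest at 20 nM.

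RNF146 recognises proteins that carry poly(ADP-ribose), such as the Wnt pathway scaffold axin. Its probe read 214 with vehicle, 369 at 10 nM and 660.2 at 20 nM, which gave 2.33-fold above vehicle at 10 nM and 4.96-fold above it at 20 nM. A dimmer RNF146 probe, not detected on the vehicle array, gave log2 fold changes of 1.03 and 2.02 at the same doses. RNF24, a membrane RING protein, read 237 with vehicle, 568 at 10 nM and 576 at 20 nM. Unlike RNF146, RNF24 was nearly level between the doses, 3.36-fold above vehicle at 10 nM and 3.5-fold above it at 20 nM.

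RNF145, a sterol-responsive ligase of the endoplasmic reticulum, had an intensity of 337 with vehicle, 446 at 10 nM and 736 at 20 nM, and was 2.68-fold higher at 20 nM. RNF41, which acts on the receptor ERBB3, read 280.1 with vehicle, 429 at 10 nM and 556 at 20 nM and was 2.57-fold higher at 20 nM. The log2 fold changes of both genes at 10 nM, 0.52 and 0.85, were below 2-fold. RNF185, a ligase of protein quality control at the endoplasmic reticulum, had no detected signal with vehicle and was at least 1.9-fold higher at 10 nM and at least 2.06-fold higher at 20 nM. Such a bound divides the bright level by the floor of the dim array, taken as the lowest detected probe there or the probe itself if that is brighter. The bound is a minimum on the scale after background removal, and not for the deposited values.

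Of 11 RNF genes fixed as membrane or endoplasmic reticulum ligases, 4 were above vehicle by 2-fold or more at 20 nM (RNF103, RNF145, RNF149 and RNF185), 1 lower (RNF121) and 6 neither. These shares of 36.4% and 9.09% stand beside 14.7% and 16.6% for all named genes, and 21.4% and 9.52% for the RNF family. Without background removal RNF185 was not past 2-fold. The list was chosen with earlier results of these data known. It leaves out RNF24, described above as a membrane protein. The median log2 fold change of the 11 listed genes was 0.55, beside -0.10 for all named genes and 0.24 for the RNF family. RNF149, a ligase of the endosomal membrane, read 744 with vehicle, 1271 at 10 nM and 1550.5 at 20 nM. It was 2.16-fold higher at 20 nM, and its dimmer probe, not detected on the vehicle array, gave a log2 fold change of 0.64. RNF121, also a membrane protein, read 465 with vehicle, 379 at 10 nM and 265 at 20 nM and was 2.14-fold lower, the only member of this list on the low side of 2-fold.

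The RING-between-RING ligases pass ubiquitin through their own cysteine. Of these 7 genes, 2 passed 2-fold above vehicle at 20 nM, 1 passed it below and 4 did neither. These shares of 28.6% and 14.3%, from 7 genes, stand beside 14.7% and 16.6% for all named genes. The higher genes were RNF19B and RNF19A, with RNF19A 2.04-fold higher. RNF144A, which has been linked to DNA-PKcs turnover, was at least 2.45-fold lower, with a probe at 201 with vehicle, 161 at 10 nM and 132 at 20 nM, not detected at 20 nM. Without background removal RNF144A was not 2-fold lower at 20 nM. RNF31, the catalytic part of the linear ubiquitin complex, had log2 fold changes of -0.61 at 10 nM and -0.56 at 20 nM.

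RNF213, a giant ATPase and ligase linked to moyamoya disease, was the RNF gene farthest below vehicle, at least 3.82-fold lower at 20 nM and 2.08-fold lower at 10 nM. Its intensity was 257 with vehicle, 176 at 10 nM and 139 at 20 nM, and it was not detected on the 20 nM array. Without background removal RNF213 was not 2-fold lower at either dose. RNF126, which acts on misfolded membrane proteins in the cytosol, read 780.4 with vehicle, 577 at 10 nM and 424 at 20 nM and was 2.09-fold lower at 20 nM. Its dimmer probe gave -0.47, so only 1 of its probes passed 2-fold.

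The TRIM family held more genes lower than higher by 2-fold at 20 nM: of 30 detected TRIM genes, 2 were at least 2-fold higher and 8 lower, and the median log2 fold change was -0.38. Of those 8, 5 are genes flagged as near-identical copies. The family's shares of 6.67% higher and 26.7% lower stand beside 14.7% and 16.6% for all named genes. Without all 6 flagged copies, 2 of 24 TRIM genes were higher and 3 lower, and the median was -0.29. Over the 21 TRIM genes detected on both arrays, 2 were higher and 4 lower, and the median turned to 0.13, so the sign of the family median depends on probes detected on 1 array of the pair. At 10 nM 0 of 29 TRIM genes were higher and 2 lower, both of them flagged copies, and the median was -0.07. Those shares of 0% and 6.90% stand beside 6.46% and 3.27% for all named genes at 10 nM.

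The flagged copies were TRIM51, TRIM48, TRIM49C, TRIM49D1, TRIM49D2 and TRIM73. TRIM51 read 769 with vehicle, 512 at 10 nM and 162 at 20 nM, and its log2 fold changes were -0.73 at 10 nM and -3.39 at 20 nM. TRIM49D1 read 333 with vehicle, 192 at 10 nM and 126 at 20 nM. TRIM48 read 306 with vehicle, 250.3 at 10 nM and 129.7 at 20 nM. All of these were lowest at 20 nM, where only TRIM51 was still detected.

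TRIM49C read 270.5 with vehicle, 189.7 at 10 nM and 129 at 20 nM. TRIM49D2 read 240.2 with vehicle, 168 at 10 nM and 122 at 20 nM. At 20 nM the bounds against vehicle were at least 5.66-fold lower for TRIM49D1, at least 4.98-fold lower for TRIM48, at least 4.14-fold lower for TRIM49C and at least 3.4-fold lower for TRIM49D2. Without background removal TRIM49D2 was not 2-fold lower at 20 nM. Whether a probe of 1 copy also reads another was not tested, since probe sequences were not used here, so these 5 values may not be separate observations. TRIM73, the copy on chromosome 7, was detected on the 20 nM array alone, with a bound of at least 1.16-fold higher.

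The bases before the transcription starts (RefSeq, GRCh38.p14, 5′ to 3′ on the gene's strand) are alike in places. Set side by side from the start with no gaps, the windows of the 5 lower copies share only 21.0% to 30.7% of their bases with each other. Offset stretches around a shared AP-1-like match, which begins 183 bases before the start of TRIM48 (chr11:55261942-55262008, plus strand) and 192 before that of TRIM49D1 (chr11:89920603-89920669, minus strand), share 65 of 67 bases. The capitals mark the 2 bases that differ.
TRIM48: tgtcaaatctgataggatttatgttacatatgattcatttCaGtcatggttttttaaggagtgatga
TRIM49D1: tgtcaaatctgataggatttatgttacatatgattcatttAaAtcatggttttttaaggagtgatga
The start windows of TRIM49C and of TRIM49, a gene outside the members, from 250 bases before the start to 50 after it, share 299 of 300 bases, and the 60 bases just before the starts are shown for TRIM49C (chr11:90031046-90031105, plus strand) and TRIM49 (chr11:89808576-89808635, minus strand).
TRIM49C: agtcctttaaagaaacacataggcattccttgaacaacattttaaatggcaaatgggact
TRIM49: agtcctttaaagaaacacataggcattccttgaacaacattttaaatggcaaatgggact
TRIM73 and TRIM74, also outside the members, likewise share 299 of 300 bases.

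Among TRIM genes not flagged as near-identical copies, TRIM38 and TRIM24 were the higher genes at 20 nM, but neither was 2-fold higher without background removal. TRIM38, a regulator of innate immune signalling, read 158 with vehicle, 183 at 10 nM and 238 at 20 nM and was 2.43-fold higher at 20 nM. TRIM24, a chromatin reader and coactivator of the androgen receptor, read 289.8 with vehicle, 313 at 10 nM and 511 at 20 nM. TRIM24 was nearly level between vehicle and 10 nM and 2.19-fold higher than vehicle at 20 nM, and a second TRIM24 probe stood at -0.02 (10 nM) and 0.98 (20 nM) on the log2 scale.

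On the lower side were TRIM25, TRIM27 and TRIM68, none of them 2-fold lower without background removal. TRIM25, which ubiquitinates the RNA sensor RIG-I, read 349 with vehicle, 251 at 10 nM and 191 at 20 nM and was 2.58-fold lower at 20 nM. TRIM27 was 2.25-fold lower at 20 nM, with intensities of 252 with vehicle, 186 at 10 nM and 164 at 20 nM. TRIM68, a ligase that binds the androgen receptor, read 498 with vehicle, 321 at 10 nM and 279 at 20 nM and was 2.15-fold lower at 20 nM. These 3 genes were detected on every array and highest on the vehicle array.

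Of 5 fixed partners of the androgen receptor, TRIM24 was above vehicle by 2-fold or more at 20 nM, TRIM68 lower and 3 neither. RNF6, which ubiquitinates the receptor, was not detected on the vehicle array, with a bound of at least 1.43-fold higher at 20 nM. RNF14 had a log2 fold change of -0.52 and RNF4, a ligase for SUMO-tagged proteins, 0.34. The 5 fixed antiviral genes also split, TRIM38 higher, TRIM25 lower and TRIM5, TRIM26 and RNF135 within 2-fold. In both lists 20.0% were higher and 20.0% lower, beside 14.7% and 16.6% for all named genes.

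**Figure D2:**
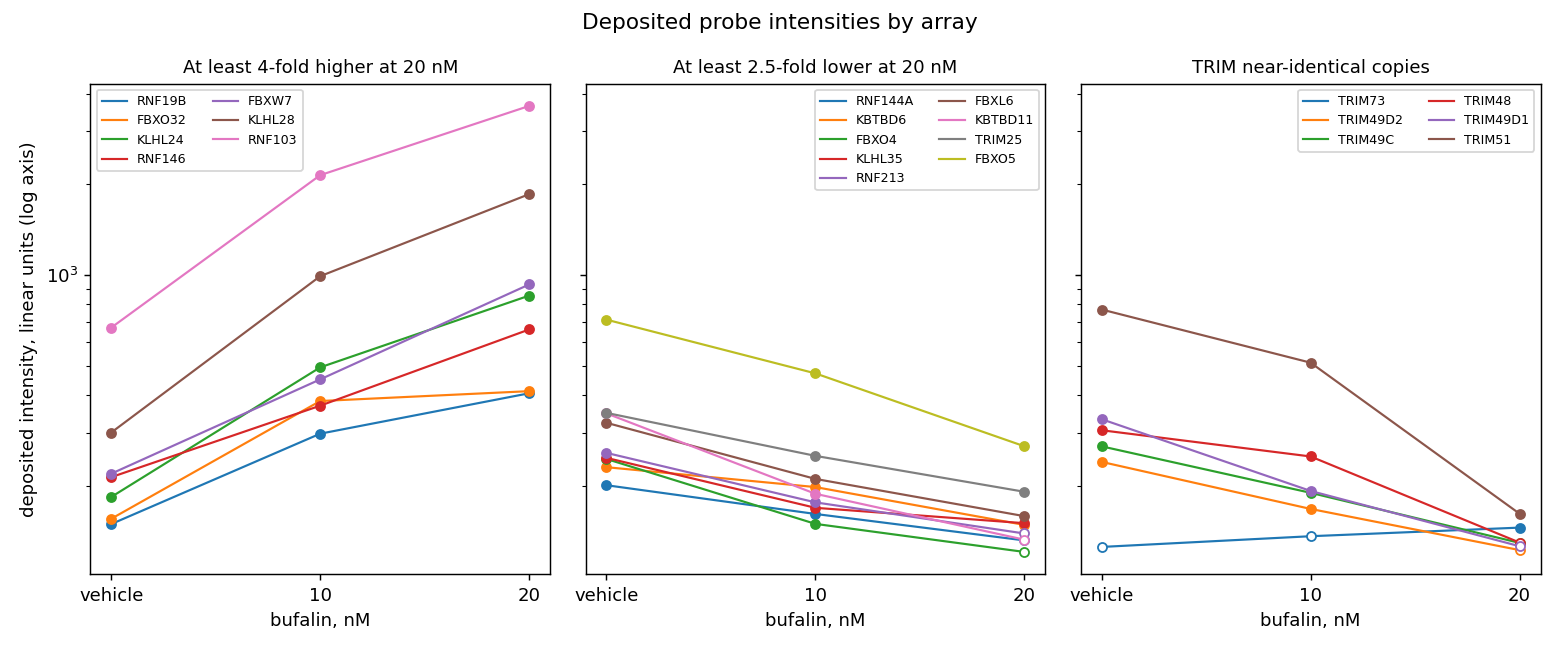
Deposited probe intensity (log axis) on the vehicle, 10 nM and 20 nM arrays for members at least 4-fold higher at 20 nM (left), members at least 2.5-fold lower that are not near-identical copies (middle) and the flagged TRIM copies (right). Each line is the probe of 1 gene, and open points were not detected. Every line at left is highest at 20 nM, RNF103 reaching 3639.7, and the 6 copies lie between 122 and 162 at 20 nM.

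The F-box families had 4 of 37 detected genes above vehicle by 2-fold or more at 20 nM and 6 lower. Their shares of 10.8% and 16.2% lie near the 14.7% and 16.6% of all named genes. The median log2 fold change of the F-box genes was 0.32, or 0.37 over the 31 detected on both arrays. By family, FBXO had 3 of 22 higher and 4 lower and the median was 0.34. FBXL had 0 of 8 higher and 1 lower and the median was -0.42, which was 0.19 over the 6 detected on both arrays. FBXW had 1 of 7 higher and 1 lower and the median was 0.34. At 10 nM the medians were 0.20 for FBXO, -0.23 for FBXL and 0.05 for FBXW. With 8 or fewer genes, the FBXL and FBXW medians turn on a few probes.

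FBXW7 was the F-box gene farthest above vehicle. Its probe read 219 with vehicle, 451 at 10 nM and 931 at 20 nM, which is 2.91-fold above vehicle at 10 nM and 6.91-fold above it at 20 nM. The other FBXW7 probe, not detected on the vehicle array, read 132 there, 164 at 10 nM and 289 at 20 nM, or 0.89 and 2.49 above vehicle on the log2 scale. FBXW11, the beta-TrCP paralogue that marks IkappaB and beta-catenin, read 738 with vehicle, 1034 at 10 nM and 1078 at 20 nM and stayed within 2-fold at both doses. FBXW9 was the lower gene of the family, 2.21-fold lower at 20 nM.

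FBXO32 encodes atrogin-1, a ligase of muscle atrophy. Its probe read 156 with vehicle, 382 at 10 nM and 412 at 20 nM, 4.89-fold above vehicle at 10 nM and 5.65-fold above it at 20 nM, so the doses lie close together. A second FBXO32 probe, detected at both doses and not on the vehicle array, gave log2 fold changes of only 0.63 at 10 nM and 0.50 at 20 nM. FBXO30, the other muscle atrophy ligase with a named probe, was 2.1-fold higher at 20 nM by 1 probe, and its second probe gave a log2 fold change of 0.92. FBXO33, an F-box protein that binds the factor YB-1, read 435 with vehicle, 698 at 10 nM and 775 at 20 nM and lay just at the 2-fold threshold.

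FBXO5 (also called EMI1) read 712 with vehicle, 472 at 10 nM and 271 at 20 nM. It was 3.54-fold lower at 20 nM, and its log2 fold change at 10 nM was -0.77. FBXL6 read 324 with vehicle, 211 at 10 nM and 159 at 20 nM and was 2.04-fold lower at 10 nM and 3.66-fold lower at 20 nM. Both genes were detected on all 3 arrays by the probe used, and the second FBXL6 probe, not detected at 20 nM, gave a log2 fold change of -2.26. FBXO6, which recognises sugar chains on misfolded glycoproteins, read 225 with vehicle, 187 at 10 nM and 156 at 20 nM and was 2.1-fold lower at 20 nM.

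FBXO4, which has been reported to act on cyclin D1, had probes that disagreed. The probe used read 246 with vehicle, 149.6 at 10 nM and 121 at 20 nM and gave 2.89-fold lower at 10 nM and at least 3.55-fold lower at 20 nM. Its other probes gave log2 fold changes of -0.99 and 0.89 at 20 nM, each detected on only 1 array of the pair, so no direction is given for this gene. FBXO15, a marker of embryonic stem cells in the mouse, was detected on the vehicle array alone and was at least 1.76-fold lower at 20 nM.

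Of 11 members fixed for mitosis and cell cycle substrates, 2 were above vehicle by 2-fold or more at 20 nM (FBXW7 and KLHL21), 4 lower by the probe used (FBXO4, FBXO5, KLHL9 and KLHL22) and 5 neither. These shares of 18.2% and 36.4%, from 11 genes, stand beside 14.7% and 16.6% for all named genes. FBXO31, which removes cyclin D1 after DNA damage, read 375 with vehicle, 453 at 10 nM and 564 at 20 nM with a log2 fold change of 0.78 at 20 nM. FBXL12 read 225 with vehicle, 216 at 10 nM and 323 at 20 nM and showed log2 fold changes of -0.11 at 10 nM and 0.89 at 20 nM. FBXL5, placed in the same list although its known substrate is an iron regulator, stood at 0.72 at 20 nM.

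The kelch families stood mostly below vehicle, apart from a few KLHL genes far above it. Of 19 detected KLHL genes, 4 were at least 2-fold higher and 4 lower at 20 nM, and the median was -0.48. Each share is 21.1%, beside 14.7% higher and 16.6% lower for all named genes. At 10 nM 2 KLHL genes were higher and 1 lower, and the median was -0.34. Those shares of 10.5% and 5.26% stand beside 6.46% and 3.27% for all named genes at 10 nM. Over the 18 KLHL genes detected on both arrays at 20 nM the median was -0.44.

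KLHL24 read 184 with vehicle, 494 at 10 nM and 855 at 20 nM, 4.62-fold above vehicle at 10 nM and 8.88-fold above it at 20 nM. KLHL28 read 300.5 with vehicle, 992 at 10 nM and 1856 at 20 nM, 4.44-fold above vehicle at 10 nM and 8.57-fold above it at 20 nM. The vehicle array was far below both bufalin arrays for each gene. A second KLHL28 probe, detected on all 3 arrays, gave a smaller log2 fold change of 1.81 at 20 nM.

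KLHL21, a CUL3 adaptor that guides Aurora B in mitosis, read 187 with vehicle, 248 at 10 nM and 322 at 20 nM and was 2.61-fold higher at 20 nM. KLHL7, a CUL3 adaptor altered in a form of retinitis pigmentosa, was 2.66-fold higher by the probe used, with intensities of 183 with vehicle, 235 at 10 nM and 318 at 20 nM. Its second probe gave a log2 fold change of 0.40, so the size of the KLHL7 difference depends on the probe. Neither KLHL21 nor KLHL7 was 2-fold higher without background removal.

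The lower KLHL genes were KLHL35, KLHL1, KLHL22 and KLHL9, none of them 2-fold lower without background removal. KLHL35 read 248 with vehicle, 169 at 10 nM and 150.4 at 20 nM, 2.15-fold lower at 10 nM and 2.8-fold lower at 20 nM. KLHL22, an adaptor that acts on PLK1 in mitosis, read 605 with vehicle, 415 at 10 nM and 311 at 20 nM and was 2.35-fold lower at 20 nM. KLHL9, another Aurora B adaptor, read 884 with vehicle, 669 at 10 nM and 476 at 20 nM and was 2.06-fold lower at 20 nM, the opposite direction to KLHL21. KLHL1, best known from neurons, was 2.43-fold lower at 20 nM.

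Of 6 detected KBTBD genes, 0 were above vehicle by 2-fold or more at 20 nM and 4 were lower, and the median log2 fold change was -1.12. These shares of 0% and 66.7%, from 6 genes, stand beside 14.7% and 16.6% for all named genes. Without background removal the median was -0.48 and KBTBD11 alone was still 2-fold lower. Over the 4 detected on both arrays, 2 were lower and the median was -0.79. KBTBD11 read 348 with vehicle, 188 at 10 nM and 133 at 20 nM, 2.83-fold lower at 10 nM and, no longer detected, at least 6.0-fold lower at 20 nM. KBTBD6, which acts with KBTBD7 on the Rac activator TIAM1, read 231 with vehicle, 198 at 10 nM and 148 at 20 nM and was 2.55-fold lower at 20 nM. Its second probe gave a log2 fold change of -1.16, so both KBTBD6 probes were past 2-fold.

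KBTBD4, a CUL3 adaptor altered in some medulloblastomas, read 256 with vehicle, 193 at 10 nM and 172 at 20 nM and was 2.05-fold lower at 20 nM. KBTBD3 was detected on the vehicle array alone, with a bound of at least 1.21-fold lower, and counts as 2-fold lower by its value and not by its bound. KBTBD2, which controls a subunit of PI3 kinase in insulin signalling in the mouse, was the KBTBD gene above vehicle. It read 539.8 with vehicle, 912 at 10 nM and 961 at 20 nM, with log2 fold changes of 0.87 at 10 nM and 0.94 at 20 nM. KBTBD8 was not detected on any array.

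**Figure D3:**
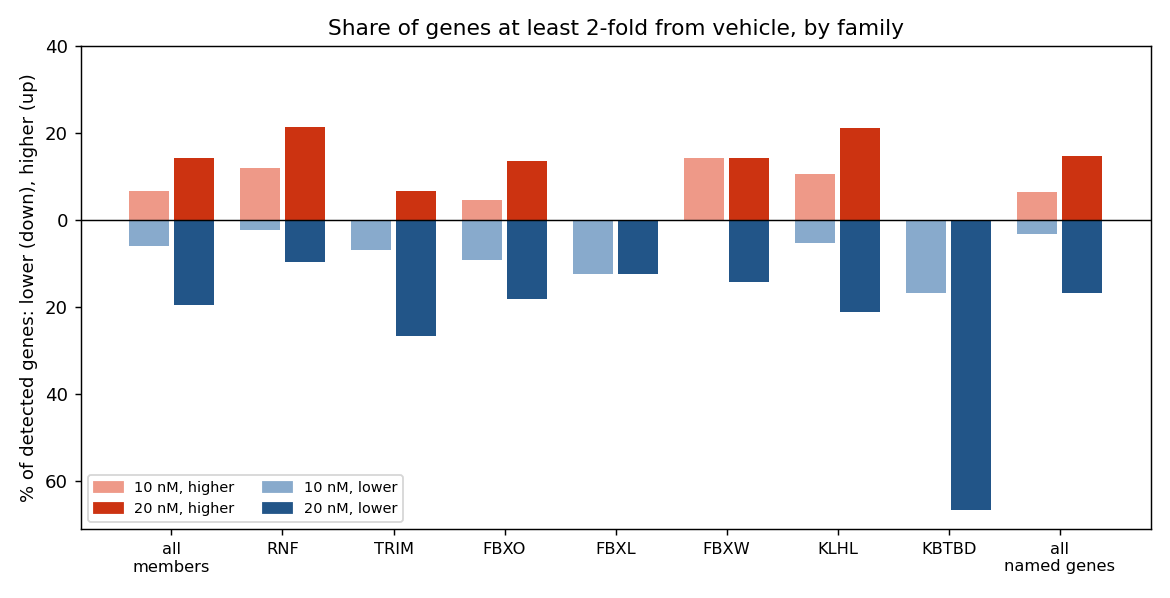
Percentage of detected genes at least 2-fold higher (upward bars) and at least 2-fold lower (downward bars) than vehicle at 10 nM (pale) and 20 nM (dark), for all members, each family and all named genes. RNF has 21.4% higher and 9.52% lower at 20 nM, TRIM 6.67% higher and 26.7% lower, and KBTBD 66.7% lower from 6 genes, beside 14.7% and 16.6% for all named genes.

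Many of the best known members differed little from vehicle. RNF20 and RNF40 form the ligase for histone H2B, and at 20 nM their log2 fold changes were -0.52 and 0.63, in opposite directions and within 2-fold. RNF20 read 413 with vehicle, 375 at 10 nM and 310.5 at 20 nM, and RNF40 read 287 with vehicle, 356 at 10 nM and 379.6 at 20 nM. TRIM28, a corepressor for KRAB zinc finger proteins, read 426 with vehicle, 490.2 at 10 nM and 447 at 20 nM and had a log2 fold change of 0.13. TRIM33, which acts on SMAD4, stood at -0.32. RNF7, the RING partner of CUL5, read 2689 with vehicle, 2391 at 10 nM and 2259.6 at 20 nM and stood at -0.30.

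RNF8, a ligase at DNA double-strand breaks, had log2 fold changes of -0.55 at 10 nM and -0.28 at 20 nM, and RNF168, which acts after it, was not detected on any array. Of 8 detected members fixed for chromatin and DNA damage, only TRIM24 was past 2-fold at 20 nM. That is 12.5% higher and 0% lower, beside 14.7% and 16.6% for all named genes. KLHL12, which shapes transport vesicles for collagen, stood at -0.41, and KLHL20 at 0.05. Of 5 detected members fixed for trafficking and the cytoskeleton, KBTBD6 was the only one past 2-fold, or 20.0% lower, beside the same 16.6%.

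Members with bright probes were also found within 2-fold. TRIM4 read 910.0 with vehicle, 1259 at 10 nM and 1319 at 20 nM, with a log2 fold change of 0.56 at 20 nM. FBXO28 read 1062 with vehicle, 712 at 10 nM and 701 at 20 nM, with -0.68 at 20 nM and -0.69 at 10 nM. FBXL18 read 612 with vehicle, 562 at 10 nM and 519 at 20 nM and stood at -0.29, nearest to vehicle in its family, as FBXW5 was in its own at 0.34. These probes were detected on all 3 arrays.

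Several dim members were detected on only some arrays and stayed within 2-fold. RNF25, detected at both doses and not with vehicle, had bounds of at least 1.31-fold higher at 10 nM and at least 1.48-fold higher at 20 nM. FBXO10 was detected at 20 nM alone, with a bound of at least 1.23-fold higher, and FBXO46 at 10 nM alone, with a bound of at least 1.54-fold higher. KLHL23, TRIM45, FBXL22 and FBXW8 were detected with vehicle alone, and their bounds at 20 nM were at least 1.73-fold, at least 1.32-fold, at least 1.24-fold and at least 1.12-fold lower. FBXO25 and RNF128 were detected with vehicle and at 20 nM, where their log2 fold changes were -0.15 and -0.09, and not at 10 nM. FBXO16, KLHL11, KBTBD8 and RNF168 were the 4 members detected on no array, while 109 were detected on all 3 and 26 on 1 or 2.

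Between the doses, 2 of 126 detected members were higher at 20 nM than at 10 nM by 2-fold or more and 10 were lower, while 2.73% of all named genes were higher and 4.86% lower. The median log2 difference was near 0 for members and -0.03 for all named genes. The higher genes were FBXW7, 2.38-fold higher, and RNF146, 2.12-fold higher. TRIM24 and FBXL12 followed with log2 differences of 0.98 and 0.99, each near level between 10 nM and vehicle. With arrays scaled by their medians, 6 members were higher and 9 lower, a share of higher calls of 40.0% in place of 16.7%.

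Of the 10 members lower at 20 nM than at 10 nM, 5 were flagged TRIM copies, and 6 were no longer detected at 20 nM. TRIM51 was 6.31-fold lower. RNF220 and TRIM47 were above vehicle at 10 nM and below it at 20 nM. RNF220, a ligase with a role in neural development in mice, read 362 with vehicle, 528 at 10 nM and 286 at 20 nM and was 2.21-fold lower at 20 nM than at 10 nM. TRIM47 read 177 with vehicle, 228 at 10 nM and 154 at 20 nM and was 2.25-fold lower. FBXO5 was 2.08-fold lower, and KBTBD11 had a bound of at least 2.12-fold lower.

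A list of cullin scaffolds, adaptors and regulators was also examined, which includes scaffolds such as CUL2 and CUL5 that serve other receptors. Of 29 fixed genes with a named probe, all detected, 1 was above vehicle by 2-fold or more at 20 nM, 4 lower and 24 neither. These shares of 3.45% and 13.8% stand beside 14.7% and 16.6% for all named genes. The median of the list was -0.21. None of its genes was past 2-fold at 10 nM, where 6.46% of all named genes were higher and 3.27% lower. The higher gene was DCUN1D2, a neddylation factor not detected with vehicle, whose bound of 0.66 on the log2 scale is under 2-fold. The lower genes were GLMN, which blocks the RING protein RBX1 (-1.73), COPS6, a signalosome subunit (-1.38), the scaffold CUL5 (-1.25) and NAE1, part of the enzyme that activates NEDD8 (-1.09). GLMN read 935 with vehicle, 595 at 10 nM and 345 at 20 nM. CUL1 had a log2 fold change of 0.56 and SKP1 0.32, and CUL3 was not among the named genes.

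Ligase genes of the same domains under other symbols also went both ways. Of 50 fixed genes, 10 were above vehicle by 2-fold or more at 20 nM, 8 lower and 32 neither, around a median of 0.43. The higher share was 20.0%, beside 14.7% for all named genes, and the lower share lay near their 16.6%. The median of all named genes was -0.10. At 10 nM 4 of 47 were higher and 1 lower. Those shares of 8.51% and 2.13% stand beside 6.46% and 3.27% for all named genes. ENC1, a kelch protein, read 205 with vehicle, 1057 at 10 nM and 1027 at 20 nM. CBL, a ligase for growth factor receptors, read 145 with vehicle, 188 at 10 nM and 295 at 20 nM with a log2 fold change of 2.13 at 20 nM. UHRF1, which maintains DNA methylation, read 805 with vehicle, 501 at 10 nM and 247 at 20 nM with a log2 fold change of -2.24, and the DNA repair ligase BRCA1 was detected at 10 nM and on the vehicle array only.

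Probes of the same gene mostly gave like values. Of 36 further detected probes of 32 members, 30 lay within 1 log2 unit of the probe used at 20 nM, with a median absolute difference of 0.24, and 4 had the other sign. Over all named genes with several detected probes, the pooled standard deviation between probes of a gene was 0.44 for 20 nM over vehicle, 0.31 for 10 nM over vehicle and 0.31 for 20 nM over 10 nM. This spread describes probes, not replicate cultures. The members with probes more than 1 log2 unit apart at 20 nM were FBXO4, FBXO32, KLHL5, KLHL7 and KLHL28. KLHL5 had log2 fold changes of -0.96, 0.83 and -1.06 by its 3 probes.

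**Figure D4:**
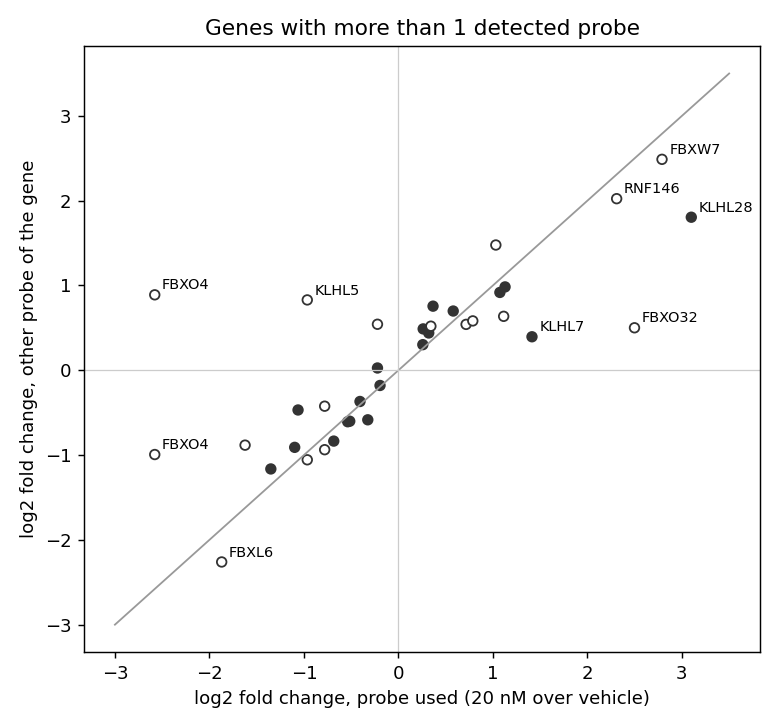
Log2 fold change at 20 nM over vehicle by the probe used (horizontal) and by each further detected probe of the same gene (vertical), with 1 point per further probe; filled points are probes detected on all 3 arrays and the line marks equal values. Of 36 points, 30 lie within 1 log2 unit of equality, and FBXO4, FBXO32, KLHL5, KLHL7 and KLHL28 lie farther away.

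The bases upstream of the members that moved were searched for the letters of 3 transcription factor sites, a choice made after the values were seen. The letters were TGANTCA for AP-1, TGACGTCA for the cyclic AMP element and CACGTG for the E-box, on both strands of the 250 bases before each RefSeq start (GRCh38.p14). Start windows were at hand for 109 members, 13 of them higher and 22 lower at 20 nM. The AP-1 letters were found in 3 of 13 higher and 2 of 22 lower members and in 8.06% of all 27305 genes of the table. Both lower members are flagged copies, TRIM48 and TRIM49D1, which share the matched stretch shown above. The E-box letters were found in 2 of 13 higher and 2 of 22 lower members and in 7.73% of all genes, and the cyclic AMP element in 0 of 13, 1 of 22 and 2.03%. A match is a description of the letters and not of binding.

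Of these, 4 stretches are shown to set members on both sides of vehicle beside each other, with the letters in capitals: AP-1 in KLHL24 (chr3:183635390-183635456, plus strand) and KLHL21 (chr1:6603017-6603083, minus strand), both higher at 20 nM, and the E-box in RNF146 (chr6:127266807-127266863, plus strand), higher, and TRIM25 (chr17:56914063-56914128, minus strand), lower.
KLHL24: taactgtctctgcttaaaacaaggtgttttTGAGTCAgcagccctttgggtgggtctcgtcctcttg
KLHL21: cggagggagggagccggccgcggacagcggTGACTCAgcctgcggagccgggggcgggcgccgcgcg
RNF146: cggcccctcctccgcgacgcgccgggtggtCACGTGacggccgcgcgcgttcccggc
TRIM25: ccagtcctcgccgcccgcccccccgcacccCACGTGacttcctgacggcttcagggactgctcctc
The AP-1 letters of KLHL24 begin 203 bases before the start and those of KLHL21 184 bases before it. Members on opposite sides of vehicle, RNF146 and TRIM25, both carry the E-box letters.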

How the data were processed

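RNA of each treatment was hybridised to 1 Illumina bead array (3 in all), and arrays were grouped by the labelled treatment. The deposited intensity table holds a signal on a linear scale for 47323 probes, not normalized per the file headers, and its detection p-values were deposited alongside. BeadStudio 3.0 appears in the submitters' processing notes with no role given, and whether it subtracted background is not stated. The lowest intensities of the 3 arrays were 91.8 to 93.3 and the medians 119.5 to 122.1, so a background level was left in the values. A second deposited table of 13753 probes holds the same intensities (41259 of 41259 values exactly equal). Of its probes, 13752 pass detection at 0.05 on 2 or more arrays and differ from vehicle by at least 10% at either dose. Of the 13753 probes, 10952 had 1 gene symbol, 2 had several and 2799 had none. Symbols were updated by gene identifier against RefSeq.

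In limma 3.58.1 (R 4.3.3), normexp background removal used the detection p-values, an offset of 16 was added, arrays were quantile normalized and log2 was taken. Each gene was represented by its probe with the highest mean intensity over the 3 arrays. Genes were compared by a 2-fold size rule with no test, each dose with vehicle and the doses with each other. The steps were tested on simulated data. The rule for named members took those farthest from vehicle at 20 nM with the same sign at 10 nM, the farthest at 10 nM and between doses, the largest bounds, the highest, lowest, nearest and brightest of each family, members whose probes differ by over 1 log2 unit, flagged copies and a panel, which gave 76. The other members were named after their values were seen. The members and lists were chosen with earlier results of these data known. In all, 11 alternative settings were tried.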

Additional observations from a re-analysis of the deposited data

How the results depend on the processing

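Of 16 summary results under 11 alternatives, those not named here stayed within 1.5 times (counts) or within the spread between probes of a gene (medians). Without background removal, members at least 2-fold higher and lower numbered 11 and 8 at 20 nM, 0 were lower at 10 nM, 1 was higher and 1 lower between the doses, and the KBTBD median was -0.48. All 11 and 8 genes at 20 nM were among those called with it, and the lower calls of the RNF, KLHL and FBXW families, and of TRIM genes outside the flagged copies, were all lost. The higher calls lost were FBXO30, FBXO33, KLHL7, KLHL21, RNF19A, RNF185, TRIM24 and TRIM38. The deposited intensities as they are gave 10 and 8 at 20 nM, 0 lower at 10 nM, 1 and 1 between the doses, and a KBTBD median of -0.48. An offset of 50 gave 15 lower at 20 nM, 3 lower at 10 nM, and 1 higher and 4 lower between the doses. Median scaling gave 6 higher between the doses. Requiring detection on both arrays gave 16 lower at 20 nM and 4 lower between the doses, with medians of 0.13 for TRIM and 0.19 for FBXL. Leaving out the near-identical copies gave 5 lower between the doses. The cause was not tested. No log2 fold change of a named member past 2-fold changed sign under the 5 settings tried for them. Their sizes were less stable. Of 228 log2 fold changes of named members, 91 moved beyond the spread between probes of a gene without background removal. In the deposited intensities 89 moved, with an offset of 50 39 moved, and with the mean of detected probes 16 moved. Under median scaling all 228 stayed within that spread. No paired analysis was possible because each treatment had 1 array, and no replicate could be left out. Of 26 lower calls at 20 nM, 10 had a probe detected with vehicle and not at 20 nM, so their size there is a bound.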
